A study of Mus musculus with 9 samples.

Results

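The aminoacyl-tRNA synthetase genes of 4T1 cells were followed across 3 culture conditions. They were chosen by a rule on names, as every symbol of the count table made of a 1-letter amino acid code and "ars", with or without a final 1 or 2, together with Eprs, Farsa and Farsb. This choice was made with earlier results of these data known. The rule found 37 genes among the 24421 in the table. A symbol ending in 2 was taken as the mitochondrial enzyme, which gave 17 mitochondrial genes and left 20 that are cytosolic or serve both compartments. 4T1 is a mouse mammary carcinoma line, and RNA-seq was made from 9 libraries of it after 5 days of culture, 3 libraries per condition. The conditions were 3D spheroids without added palmitate, 3D spheroids with 75 µM palmitate, and 2D monolayers with 75 µM palmitate. All cultures were of this 1 line in medium with serum, spheroids grew over soft agar, and palmitate was given bound to albumin while controls received the carrier. A 2D culture without added palmitate was not analysed here, so culture form could be compared only with palmitate present, and the 3D libraries with palmitate serve in both comparisons. The study made these comparisons to examine lipid processing genes.

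Each synthetase joins one amino acid to its tRNAs, the step that fixes the meaning of the codons. Mitochondria translate their own few messages with tRNAs of their own, and most of the enzymes that charge them are encoded by separate nuclear genes and imported. Gars and Kars are the exceptions, each encoding the enzyme of both compartments. Qars has no mitochondrial partner: there, Ears2 places glutamate on the glutamine tRNA and an amidotransferase built from the products of Qrsl1, Gatb and Gatc converts it. Eprs carries the glutamate and proline activities in one chain, and Farsa and Farsb encode the subunits of the cytosolic phenylalanine enzyme. In the cytosol the enzymes from Dars, Eprs, Iars, Kars, Lars, Mars, Qars and Rars sit together in the multisynthetase complex on the scaffold proteins from Aimp1, Aimp2 and Eef1e1. Many cytosolic synthetase genes are known targets of ATF4, the transcription factor that is translated when uncharged tRNA or other stress slows initiation.

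The element bound by ATF4 with its C/EBP partners can be written TGATGNAA, and the promoters of the members were searched for it on both strands. RefSeq promoters, which run from 250 bases before to 50 bases after a gene's start, were given for 27 of the 37 members, 13 cytosolic or dual and 14 mitochondrial. The motif stood in 5 of the 13 cytosolic or dual promoters (38.5%) and in 0 of the 14 mitochondrial ones, against 4.51% of the 27025 genes with a promoter. As a second motif, GCGC followed by any base and TGCGC, a form of the NRF1 element found before many nuclear genes of mitochondrial proteins, stood in 3 of 13 cytosolic or dual and 2 of 14 mitochondrial promoters, against 5.19% of all genes. For each of the 5 genes 1 match is shown, because only cytosolic promoters held the motif here, and not every match is printed. Each line gives 30 bases of RefSeq sequence (GRCm38.p6) 5′ to 3′ on the gene's strand, with the match in capitals. Capitals that begin with TT are the same motif read from the other strand.
Aars, chr8:111033840-111033869, plus strand: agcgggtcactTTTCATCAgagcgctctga
Gars, chr6:55037960-55037989, plus strand: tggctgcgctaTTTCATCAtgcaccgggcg
Iars, chr13:49682126-49682155, plus strand: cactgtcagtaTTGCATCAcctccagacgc
Tars, chr15:11399655-11399684, minus strand: caggagtcccgTTGCATCAgctggttagct
Yars, chr4:129189895-129189924, plus strand: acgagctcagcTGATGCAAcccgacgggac
In GENCODE M21 (GRCm38) the Gars and Tars matches lay outside the gene, just before its start. The Iars and Aars matches overlapped an untranslated exon of at least one transcript, and the Yars match overlapped coding sequence of at least one. A match describes the letters only and was not tested as a binding site.

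The libraries held between 6595514 and 31177756 counts, and the synthetase genes took from 0.515% to 0.928% of them. The shallowest library was 3D with palmitate replicate 3, in which the scarcest member, Sars2, still had 47 counts. All 37 members passed the filter on low counts, as did 12575 genes of the table. Levels are given as CPM, counts relative to library size, after TMM scaling of the library sizes, and a gene was called where edgeR's quasi-likelihood test gave an adjusted p under 0.05 over all genes tested. The epithelial markers Krt8, Krt18, Krt19, Epcam, Cdh1 and Cldn7 summed to between 4450 and 4603 CPM in the 3D libraries with palmitate and to between 3119 and 3340 CPM in the 2D libraries. Of 9 markers of leukocytes, endothelium, fibroblasts and adipocytes, Lum was at 0 in all libraries and Ptprc, Lyz2, Pecam1, Cdh5, Dcn and Adipoq stayed under 1 CPM. Pdgfra and Cd68 gave nearly all of that list's sum, which was 98.0 to 112 CPM in 3D without added palmitate, 103 to 119 CPM in 3D with palmitate and 55.5 to 58.6 CPM in 2D. They moved in opposite directions, Pdgfra being higher in 3D with palmitate than in 2D (98.8 against 30.4 CPM, log2 difference 1.69) and Cd68 lower (9.40 against 25.7 CPM, -1.39). The part of these marker differences in the results was not tested. In bulk RNA, fewer cells expressing a gene and less RNA per cell cannot be told apart. The labels do not say that the replicates were separate cultures, so the p-values measure the spread between these libraries, which may be technical.

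Synthetase transcripts were lower in spheroids than in monolayers in both compartments, and the cytosolic side was lower by more. Of the 20 cytosolic or dual genes, 18 fell in 3D, none rose, and Dars and Qars did not pass the test. Of the 17 mitochondrial genes, 11 fell, Lars2 alone rose, and Pars2, Ears2, Wars2, Cars2 and Rars2 did not pass. Among all genes tested, 68.3% were called in this comparison, 33.9% lower and 34.5% higher, so a call by itself was common, and 29 of the 30 members called were lower. The median difference (3D minus 2D, log2) was -0.69 for the cytosolic or dual genes, a 1.61-fold higher level in 2D, and -0.35 for the mitochondrial genes, a 1.27-fold higher level in 2D. Over all genes tested the median was 0.0083. The levels of the groups did not overlap, with every 3D library below every 2D library, for 18 cytosolic or dual and 11 mitochondrial members, and for none in the other direction. Over all genes tested, 69.4% did not overlap, 34.8% being lower and 34.6% higher in 3D. No test was made of the difference between the classes.

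**Figure D1:**
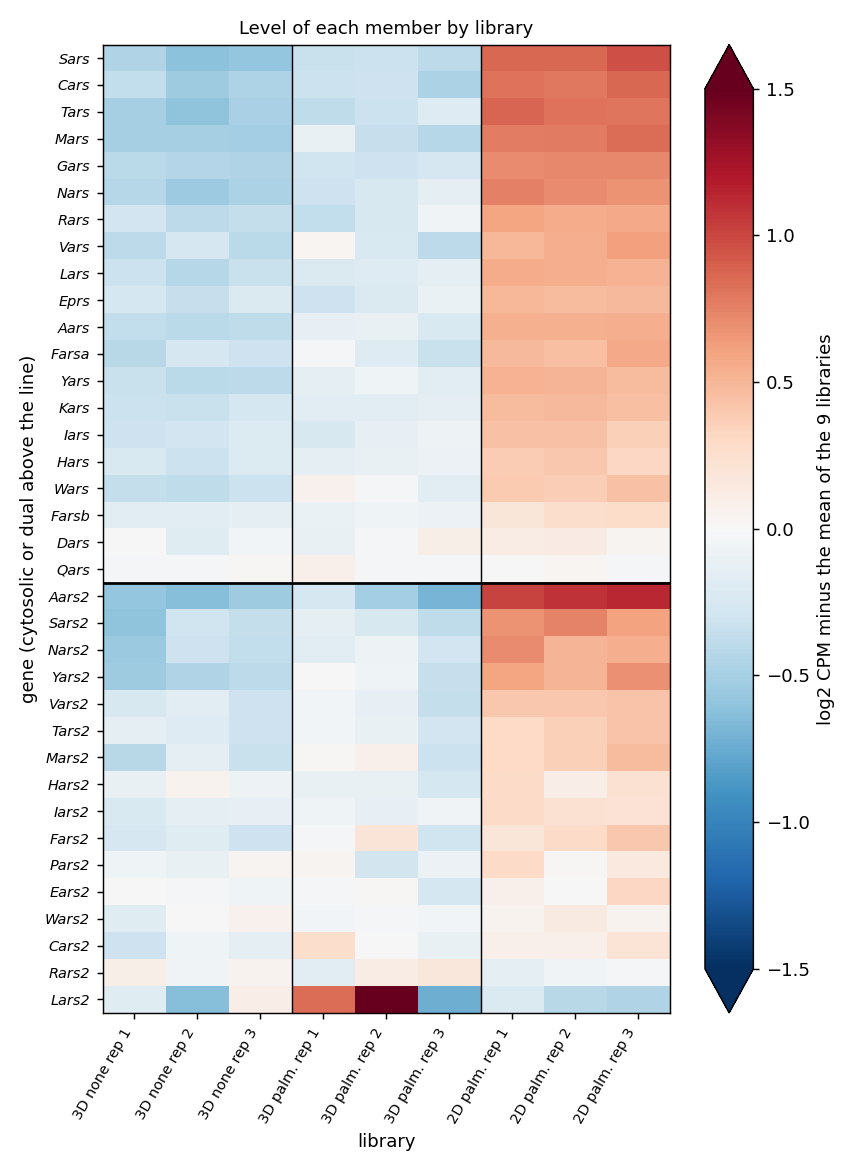
Level of 36 of the genes in each of the 9 libraries, as log2 CPM minus the gene's mean over the libraries, with cytosolic or dual genes above the black line and mitochondrial genes below it. Most rows of both classes are highest in the 3 libraries from 2D culture, Qars is nearly flat, and Lars2 is highest in 3D with palmitate replicates 1 and 2.

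The most abundant cytosolic transcripts were also among those that differed most. Per kb of coding sequence, Nars stood at 436 CPM, Sars at 399 CPM, Tars at 314 CPM and Gars at 282 CPM in 2D, the highest 4 of the cytosolic or dual genes. In 3D with palmitate the same genes stood at 227, 168, 144 and 141 CPM per kb. At the other end Farsb had the lowest cytosolic level in 2D, with 68.8 CPM per kb, and Mars the lowest in 3D with palmitate, with 44.1 CPM per kb. Leaving Lars2 aside, the mitochondrial genes lay below every one of these, from Pars2 at 6.01 to Iars2 at 42.8 CPM per kb in 2D and from Aars2 at 3.76 to Iars2 at 34.1 CPM per kb in 3D with palmitate. In 3D without added palmitate, too, the lowest cytosolic gene (Mars, 38.0 CPM per kb) was above the highest mitochondrial gene other than Lars2 (Iars2, 32.2 CPM per kb).

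Among cytosolic enzymes outside the multisynthetase complex, all 12 genes fell in 3D, with a median of -0.71. Sars, the serine enzyme (chr3:108424865-108445209, minus strand, GRCm38), stood at 272, 275 and 261 CPM in 3D with palmitate and at 626, 624 and 673 CPM in 2D. Every 2D library was far above the spheroids, and Sars had the largest difference of its class, -1.25 ± 0.063 (SE; edgeR adjusted p = 4.35e-10). Cars, the cysteine enzyme, had 129, 130 and 116 CPM in 3D and 284, 279 and 294 CPM in 2D. The difference was -1.19 ± 0.066 (edgeR adjusted p = 1.31e-09). A processed pseudogene on the opposite strand overlaps 211 bases of Cars exons, and the strand setting of the counting is not given in the sources used here. Tars, the threonine enzyme with the promoter match shown above, had 295, 305 and 336 CPM in 3D and 701, 675 and 667 CPM in 2D. No library of one group reached the other, and the difference was -1.13 ± 0.065 (edgeR adjusted p = 1.73e-09). Nars, which charges asparagine tRNA, had 361, 378 and 404 CPM in 3D and 753, 729 and 714 CPM in 2D. The 2D libraries were again all higher, by 1.92-fold (edgeR adjusted p = 7.88e-09). The other 7 of these genes, apart from Gars, were Vars, Aars, Farsa, Yars, Hars, Wars and Farsb, with differences from -0.74 for Vars to -0.33 for Farsb. The subunits of the phenylalanine enzyme did not move alike: Farsa differed by -0.67 ± 0.079 and Farsb by -0.33 ± 0.057, although the difference between them was not tested.

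Of the 8 genes whose products join the multisynthetase complex, 6 fell, with a median of -0.66 over the 8. Mars, the methionine enzyme, had 136, 115 and 109 CPM in 3D with palmitate and 249, 252 and 262 CPM in 2D. All 2D libraries were higher (-1.07 ± 0.075, edgeR adjusted p = 1.42e-08). Its exons share 68 bases with Ddit3, a stress-induced transcription factor gene on the opposite strand, which also fell (-0.85 ± 0.098, edgeR adjusted p = 2.64e-06). Rars, Lars, Eprs and Iars, the genes of the arginine, leucine, glutamate with proline, and isoleucine enzymes, lay between -0.80 and -0.56. Qars, the glutamine enzyme of the complex, had 214, 200 and 201 CPM in 3D and 204, 207 and 200 CPM in 2D. The groups overlapped, and the difference of 0.01 ± 0.057 did not pass (edgeR adjusted p = 0.881). Dars, the aspartate enzyme, also overlapped between the groups and differed by -0.11 ± 0.069 (edgeR adjusted p = 0.160). A p that misses the threshold does not show equal levels. The scaffold genes fell with the enzymes, Aimp1 by 0.66, Aimp2 by 0.59 and Eef1e1 by 1.08 on the log2 scale, 3 of 3 called.

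The genes that serve both compartments fell like the cytosolic ones. Gars, the glycine enzyme, had 305, 303 and 315 CPM in 3D with palmitate and 615, 619 and 618 CPM in 2D. The libraries of each group lay close together, and the level was 2.01-fold higher in 2D (-1.01 ± 0.054, edgeR adjusted p = 8.12e-10). Kars, the lysine enzyme and a complex member, had 258, 259 and 261 CPM in 3D and 401, 404 and 396 CPM in 2D. It was 1.54-fold higher in 2D (-0.63 ± 0.054, edgeR adjusted p = 1.30e-07).

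**Figure D2:**
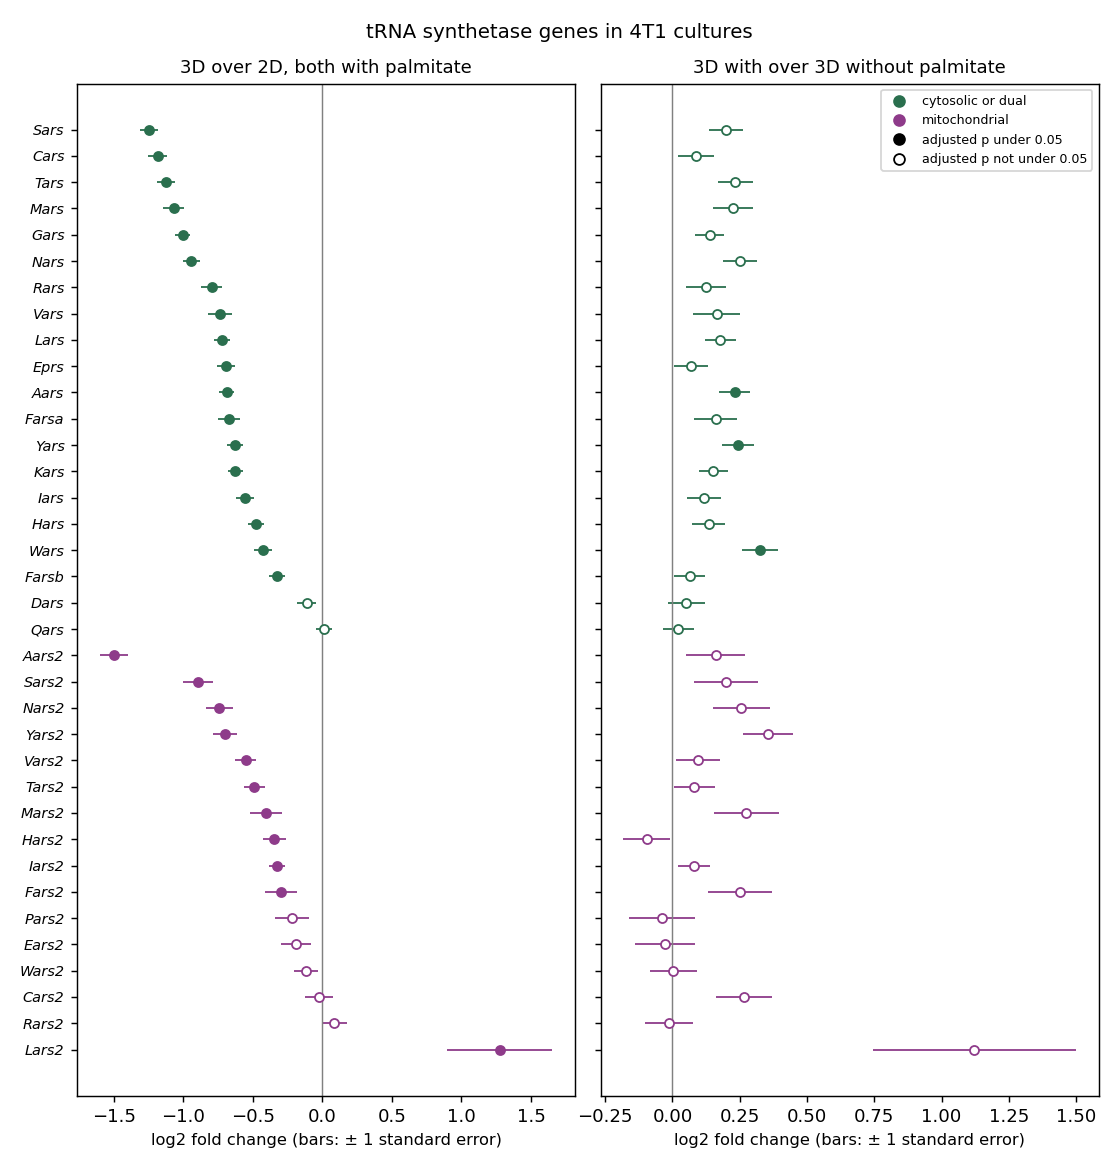
Log2 fold change of 36 of the genes with bars of 1 standard error from edgeR, 3D over 2D with palmitate on the left and 3D with over 3D without added palmitate on the right, on axes of different range. Filled points had an adjusted p under 0.05. On the left 28 points are filled below 0 and 1, Lars2, above it, while on the right only Wars, Aars and Yars are filled.

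The mitochondrial genes covered a wider range than the cytosolic ones. Aars2, the mitochondrial alanine enzyme (chr17:45506841-45520843, plus strand, GRCm38), had 12.9, 10.8 and 9.49 CPM in 3D with palmitate and 31.2, 32.6 and 33.7 CPM in 2D. With every 2D library far above the spheroids, it had the largest fall of all 37 genes, a 2.83-fold higher level in 2D (-1.5 ± 0.10, edgeR adjusted p = 8.40e-09). Sars2, for serine, had 8.50, 7.90 and 7.20 CPM in 3D and 14.9, 15.6 and 14.3 CPM in 2D, a difference of -0.89 ± 0.11 (edgeR adjusted p = 4.71e-06). Its start lies 172 bases from that of Mrps12, a mitochondrial ribosomal protein gene read the other way. Nars2, for asparagine, had 12.7, 13.4 and 11.6 CPM in 3D and 23.2, 20.2 and 20.8 CPM in 2D, again without overlap (-0.74 ± 0.099, edgeR adjusted p = 1.08e-05).

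Yars2 and Vars2 fell by less than these. Yars2, the tyrosine enzyme, had 29.7, 28.6 and 23.4 CPM in 3D and 45.2, 42.6 and 48.1 CPM in 2D (-0.70 ± 0.088, edgeR adjusted p = 5.54e-06). Vars2, the valine enzyme, had 33.0, 31.2 and 26.6 CPM in 3D and 45.0, 45.1 and 45.7 CPM in 2D (-0.55 ± 0.079, edgeR adjusted p = 2.09e-05). Both were lower in every 3D library. Smaller falls were those of Tars2, Mars2, Hars2, Iars2 and Fars2, with differences from -0.49 for Tars2 to -0.30 for Fars2. Fars2 was the 1 gene called lower whose groups overlapped, with 11.1, 12.9 and 9.19 CPM in 3D and 12.8, 13.7 and 14.9 CPM in 2D. Wars2 was the opposite case, separated between the groups by a narrow margin but not called. Ears2, which charges mitochondrial glutamate and glutamine tRNAs, had 12.5, 12.8 and 10.6 CPM in 3D and 13.4, 12.6 and 15.7 CPM in 2D. Its groups overlapped and the difference of -0.19 ± 0.109 did not pass (edgeR adjusted p = 0.133). The amidotransferase genes that act after it, Qrsl1, Gatb and Gatc, all fell, by 0.38, 0.59 and 0.23 on the log2 scale. The estimate for Gatc (-0.23 ± 0.067) was close to that of Ears2, and no test was made between Ears2 and these genes. Cars2, Rars2 and Pars2, for cysteine, arginine and proline, also overlapped between the groups, with differences of -0.03, 0.09 and -0.22.

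Some of these genes share exon bases with a gene on the opposite strand, so their reads cannot be told apart without strand. Iars2 shares 2034 bases with Rab3gap2, which rose in 3D (0.36 ± 0.061, edgeR adjusted p = 0.000107). Ears2 shares 89 bases with Ubfd1, which also rose (0.69 ± 0.075, edgeR adjusted p = 1.35e-06). Fars2 shares 115 bases with Lyrm4, which fell (-0.83 ± 0.127, edgeR adjusted p = 4.37e-05), and Hars shares 195 bases with Hars2. In all, 14 members have such an overlap, and its part in their values was not tested.

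Lars2, the mitochondrial leucine enzyme (chr9:123366927-123462666, plus strand, GRCm38), behaved unlike every other member. It had 1038, 755 and 1252 CPM in 3D without added palmitate, 2102, 3805 and 706 CPM in 3D with palmitate, and 1006, 875 and 857 CPM in 2D. Replicates 1 and 2 of 3D with palmitate were above every other library and replicate 3 of the same group was the lowest of all 9. The 3D level with palmitate was called higher than in 2D (1.27 ± 0.379, edgeR adjusted p = 0.00795) although the groups overlapped. Without 3D with palmitate replicate 2 it was not called (0.63, edgeR adjusted p = 0.0903), and without replicate 3 it rose to 1.69. With 337 CPM per kb in 2D it was the only mitochondrial gene at the level of the abundant cytosolic enzymes.

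Within each condition the libraries had the same order in Lars2 as in Rn45s, the gene of the ribosomal RNA precursor, but not across conditions. In 3D with palmitate, Lars2 took 0.211%, 0.372% and 0.0699% of all counts in replicates 1, 2 and 3, and Rn45s took 3.14%, 5.38% and 1.81%. In 3D without added palmitate the Lars2 share was 0.106%, 0.0764% and 0.124% and the Rn45s share 1.97%, 1.77% and 2.77%. In 2D the Lars2 share stayed between 0.0866% and 0.0994% and the Rn45s share between 2.46% and 3.49%. The 2D library with 3.49% Rn45s thus had less Lars2 (0.0994%) than the 3D library with palmitate that had 3.14% Rn45s. Mir6236, which carries a microRNA name, took 0.0736% and 0.113% of counts in the same pair of libraries that were high in Lars2. In the other 7 it took between 0.0180% and 0.0322%. The part of Rn45s in the Lars2 counts was not tested, and values over the mitochondrial class are therefore given with and without Lars2. Without it the median of the class was -0.38, with 11 of 16 genes lower and 0 higher.

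**Figure D3:**
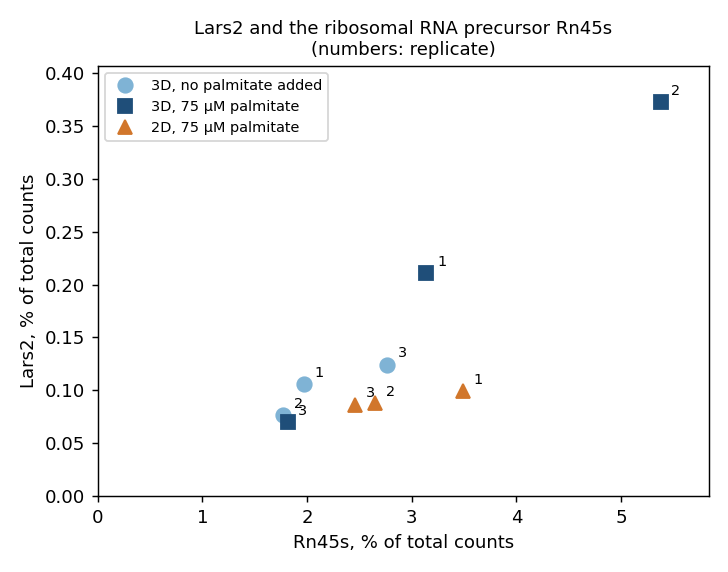
Share of all counts taken by Lars2 (vertical axis, %) and by Rn45s (horizontal axis, %) in each of the 9 libraries, numbered by replicate. The 3D library with palmitate replicate 2 is highest on both axes, at 0.372% and 5.38%, and replicate 3 of the same group is lowest for Lars2, at 0.0699%.

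Summed over the class, the 20 cytosolic or dual genes gave 4482, 4465 and 4495 CPM in 3D with palmitate and 7706, 7670 and 7724 CPM in 2D. The 16 mitochondrial genes without Lars2 gave 431, 418 and 393 CPM in 3D with palmitate and 591, 578 and 600 CPM in 2D. Both sums were higher in every 2D library, and so was their ratio: the cytosolic sum was 13.1 ± 0.204 times the mitochondrial one in 2D (SD, n = 3) and 10.8 ± 0.541 times in 3D with palmitate. On the log2 scale this ratio was lower in 3D by 0.27 without Lars2. With Lars2 included the log2 ratio was 0.82, 0.08 and 2.03 in 3D with palmitate and 2.27, 2.40 and 2.41 in 2D, still without overlap but with a wider spread in 3D.

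**Figure D4:**
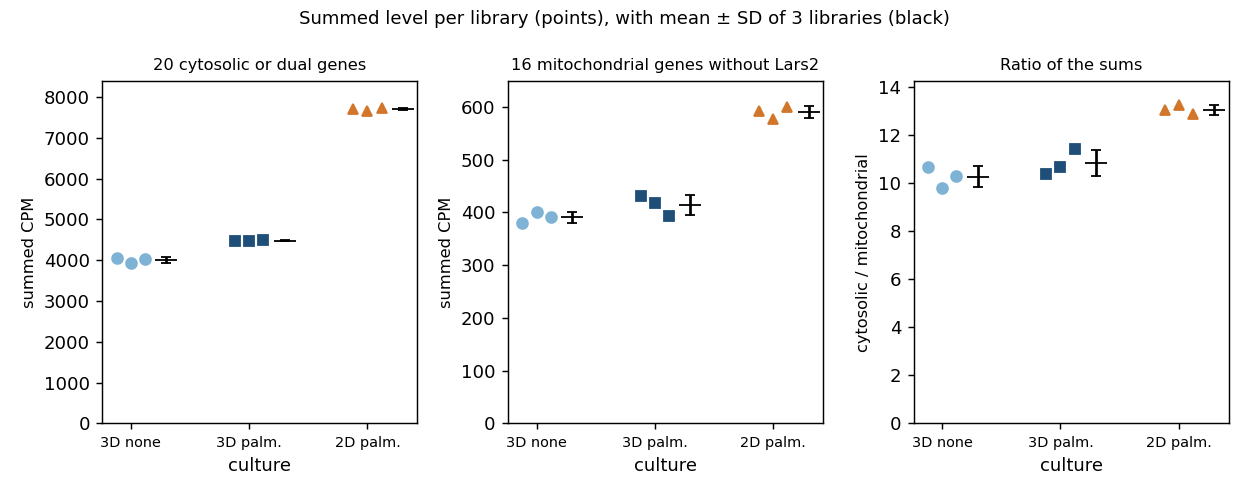
Summed CPM of the 20 cytosolic or dual genes, of the 16 mitochondrial genes without Lars2, and the ratio of the sums, by library, with the mean and SD of 3 libraries in black. The 2D libraries are highest in all panels, and the 3D libraries with palmitate lie above those without it in the cytosolic sum but overlap them in the mitochondrial sum and in the ratio.

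The same contrast was read within amino acids. For 14 amino acids 1 gene encodes the cytosolic and 1 the mitochondrial enzyme, and the log2 ratio of the first to the second does not depend on library size. In 3D with palmitate this ratio was below its 2D values in every library for 9 pairs and above them for 2 pairs. It overlapped for 3 (Hars/Hars2, Nars/Nars2 and Yars/Yars2), and the median difference was -0.28. Of single genes tested, 69.4% did not overlap in this comparison, and the share for ratios of other gene pairs was not computed. Leaving out Lars/Lars2 gave 8, 2 and 3 of 13 pairs and a median of -0.23. Apart from that pair, cysteine had the largest shift toward the mitochondrial enzyme, from 3.55 ± 0.040 in 2D to 2.42 ± 0.147 in 3D (SD, n = 3), since Cars fell and Cars2 was not called. Arginine followed, from 3.70 ± 0.069 to 2.79 ± 0.080. Alanine went the other way, from 4.25 ± 0.048 in 2D to 5.12 ± 0.177 in 3D, and holds the mitochondrial gene with the largest fall, Aars2.

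**Figure D5:**
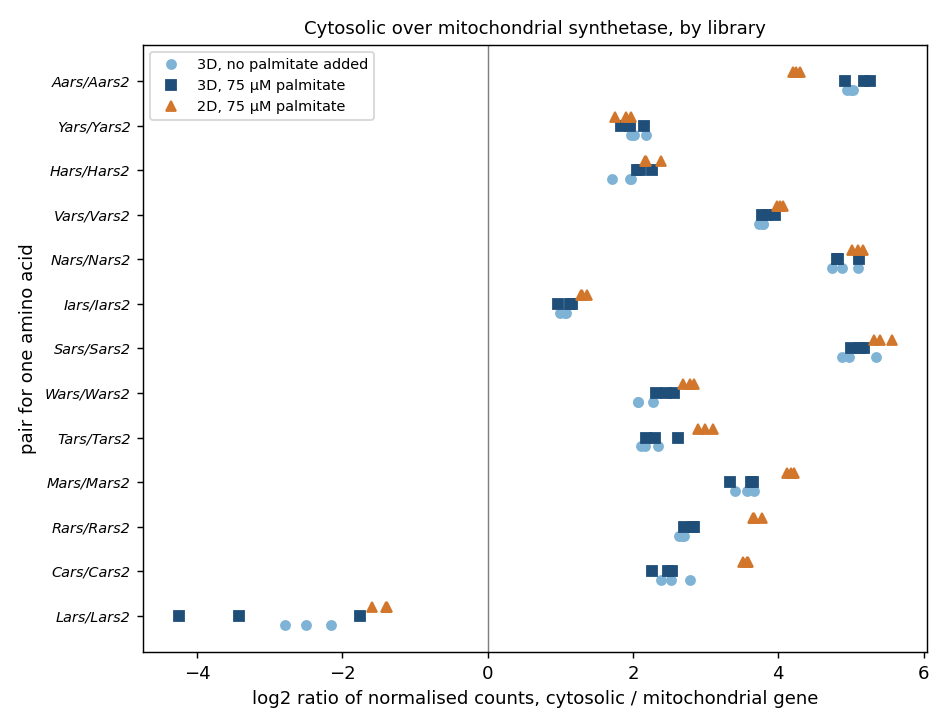
Log2 ratio of the normalised counts of the cytosolic over the mitochondrial gene for 13 of the amino acids with 1 gene each, by library (circles 3D without added palmitate, squares 3D with palmitate, triangles 2D with palmitate). Triangles lie to the right of the squares for 9 pairs and to the left for Aars/Aars2.

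Few synthetase genes differed with palmitate in spheroids, and those by small amounts. Of the 20 cytosolic or dual genes, Wars, Aars and Yars rose and none fell, where 2.19% of all genes tested were called, 1.38% higher and 0.811% lower. None of the 17 mitochondrial genes was called, and DESeq2 on the same libraries called 1, Yars2. The unadjusted edgeR p was under 0.05 for 5 mitochondrial genes, 11 cytosolic or dual genes and 2170 of all 12575 tested. The log2 difference was above 0 for 20 of 20 cytosolic or dual genes, with a median of 0.16 and a range from 0.02 to 0.33, and for 13 of 17 mitochondrial genes, with a median of 0.09. Over all genes tested the median was 0.0077 and 52.2% were above 0. The groups did not overlap, with palmitate higher, for 12 cytosolic or dual genes and for Nars2 and Yars2 of the mitochondrial ones, and for no member in the other direction. Over all genes tested, 18.6% did not overlap, 10.4% being higher and 8.19% lower with palmitate. Of the 20, the called genes were all outside the multisynthetase complex (3 of 12, against 0 of 8), a difference that was not tested. The split changed with the processing. With a GC and length trend removed, Lars and Mars of the complex were called beside Aars, Nars, Sars, Tars, Vars, Wars and Yars outside it. Mars was also called without 3D with palmitate replicate 3.

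Wars, the tryptophan enzyme, had 87.8, 86.3 and 90.4 CPM without and 118, 112 and 100 CPM with palmitate. All libraries with palmitate were higher, by 1.25-fold (0.33 ± 0.067, edgeR adjusted p = 0.0241). Aars, the alanine enzyme, had 330, 322 and 327 CPM without and 392, 392 and 363 CPM with palmitate. It was 1.17-fold higher (0.23 ± 0.056, edgeR adjusted p = 0.0478), and it shares 1326 exon bases on its own strand with Exosc6, a gene of the RNA exosome, which differed by 0.41 ± 0.123 (edgeR adjusted p = 0.0988). Yars, the tyrosine enzyme, had 93.2, 88.5 and 89.5 CPM without and 106, 112 and 104 CPM with palmitate, a 1.18-fold rise (0.24 ± 0.059, edgeR adjusted p = 0.0478). Of 18 alternatives, Wars kept its call in 10, and Aars and Yars in 3 each, which were DESeq2 on all libraries, removal of a GC and length trend, and the fit without 3D with palmitate replicate 3. Fitted on the 6 spheroid libraries alone, Wars had an edgeR adjusted p of 0.0916, Aars of 0.163 and Yars of 0.146, with fold changes of 0.32, 0.22 and 0.24 on the log2 scale. With a block for replicate number the count of members called also fell to 0, while without the shallow 3D library with palmitate replicate 3 it rose to 12.

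Other cytosolic genes moved by similar amounts without passing the test. Nars had 333, 305 and 321 CPM without and 361, 378 and 404 CPM with palmitate, the nearest to the threshold (0.25 ± 0.062, edgeR adjusted p = 0.0527). Tars had 271, 251 and 273 CPM without and 295, 305 and 336 CPM with palmitate (0.23 ± 0.064, edgeR adjusted p = 0.0781). Sars had 251, 225 and 230 CPM without and 272, 275 and 261 CPM with palmitate (0.20 ± 0.063, edgeR adjusted p = 0.119). The libraries with palmitate were the higher ones for each of these genes. Gars had 284, 278 and 276 CPM without and 305, 303 and 315 CPM with palmitate, and Kars 231, 229 and 240 against 258, 259 and 261 CPM. Both were separated without being called (0.14 and 0.15, edgeR adjusted p = 0.200 and 0.169). Qars again lay flat, with 200, 200 and 206 CPM without and 214, 200 and 201 CPM with palmitate (0.02 ± 0.057, edgeR adjusted p = 0.894).

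Among the mitochondrial genes, Yars2 came nearest, with 20.6, 21.9 and 22.8 CPM without and 29.7, 28.6 and 23.4 CPM with palmitate. Its groups did not overlap (0.35 ± 0.092, edgeR adjusted p = 0.0619). Nars2 had 9.68, 11.4 and 11 CPM without and 12.7, 13.4 and 11.6 CPM with palmitate, also separated (0.26 ± 0.106, edgeR adjusted p = 0.231). The next genes overlapped between the groups, as replicate 3 with palmitate fell among the libraries without it. Cars2 had 18.0, 21.4 and 20.4 CPM without and 26.9, 22.4 and 20.8 CPM with palmitate (0.27 ± 0.103, edgeR adjusted p = 0.202). Mars2 had 8.17, 9.82 and 8.68 CPM without and 11.1, 11.5 and 8.73 CPM with palmitate (0.28 ± 0.119, edgeR adjusted p = 0.251). Fars2 had 9.50, 9.95 and 9.06 CPM without and 11.1, 12.9 and 9.19 CPM with palmitate (0.25 ± 0.119, edgeR adjusted p = 0.296). For these scarce genes the replicate 3 library gave 57 to 136 counts each, which limits what could be seen. The part of depth in the place of that library was not tested. Ears2 had 12.6, 12.5 and 12.1 CPM without and 12.5, 12.8 and 10.6 CPM with palmitate and did not pass (-0.03 ± 0.111, edgeR adjusted p = 0.934). Lars2, with the values given above, differed by 1.12 ± 0.378 and did not pass (edgeR adjusted p = 0.142).

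The cytosolic sum was 4059, 3931 and 4041 CPM without and 4482, 4465 and 4495 CPM with palmitate, higher in every library with it. The mitochondrial sum without Lars2 was 380, 400 and 392 CPM without palmitate, which overlapped the libraries with it. The ratio of the sums was 10.3 ± 0.436 without and 10.8 ± 0.541 with palmitate (SD, n = 3) and overlapped as well. Within amino acids, 12 of the 14 pairs overlapped, and the cytosolic share was higher with palmitate without overlap for tryptophan and histidine. Of single genes tested, 18.6% did not overlap in this comparison, and ratios of other gene pairs were not computed.

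Set beside the promoter matches, the 5 cytosolic genes with TGATGNAA (Aars, Gars, Iars, Tars and Yars) had a median of -0.69 between 3D and 2D, with 5 of 5 lower. The 8 cytosolic or dual genes with a promoter but no match (Dars, Eprs, Farsa, Farsb, Kars, Mars, Qars and Sars) had a median of -0.65, with 6 of 8 lower. After palmitate the medians were 0.23, with 2 of 5 called, and 0.11, with 0 of 8 called. Of all genes tested, 33.9% were called lower in 3D than in 2D, and 2.19% were called after palmitate. The calls of Aars and Yars held in 3 of 18 alternatives each. With a GC and length trend removed, Tars of the first set and Mars and Sars of the second were called as well. Wars, called after palmitate, had no promoter entry and stands in neither set, like Rars, Vars, Hars, Lars, Nars and Cars. Sars, the gene with the largest cytosolic fall, was among those without a match in this window. The Sars window (chr3:108445210-108445509) lay outside the gene as GENCODE M21 places it. No test was made between these sets.

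Other genes of tRNA charging and translation mostly went the same way between culture forms. The counts that follow stand beside 68.3% of all genes tested that were called and 33.9% that were called lower. The lists were chosen with earlier results of these data known. Of 8 tested genes with synthetase-like or tRNA-editing products outside the rule, 6 fell. The genes of the mitochondrial glutamine amidotransferase together with Mtfmt, which formylates the initiator methionyl-tRNA, fell in 4 of 4 cases. Of 12 mitochondrial translation factors 10 fell, among them Tufm and Tsfm, the elongation factors Tu and Ts, by 0.86 and 1.04 on the log2 scale. Of 16 mitochondrial tRNA modification genes 11 fell and 1 rose, Nsun3, which modifies mitochondrial methionine tRNA (1.25 ± 0.182, edgeR adjusted p = 2.52e-05). All 7 cytosolic elongation factor genes fell, with a median of -0.88. After palmitate the single gene called among the 8, 4, 12, 16 and 7 genes of these lists was Yrdc (0.35 ± 0.084, edgeR adjusted p = 0.0482). This p lay close to the threshold of 0.05, and whether the call held in the alternatives is not reported here. Of all genes tested, 2.19% were called in that comparison. Yrdc takes part in the threonylcarbamoyl modification of tRNA.

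Of 20 tested regulators and targets of the amino acid stress response, 14 were lower in 3D than in 2D and 3 higher, against 33.9% and 34.5% of all genes tested. Atf4, the gene of the transcription factor named above, had 313, 330 and 312 CPM in 3D with palmitate and 705, 669 and 739 CPM in 2D (-1.15 ± 0.064, edgeR adjusted p = 1.26e-09). Every 2D library was above the spheroids. Asns, the asparagine synthetase of amino acid metabolism and not a tRNA enzyme, had 199, 208 and 191 CPM in 3D and 496, 501 and 507 CPM in 2D (-1.33 ± 0.070, edgeR adjusted p = 6.37e-10). The 3 that rose were Eif2ak3, which encodes the kinase PERK, and the transcription factor genes Atf5 and Cebpb, by 0.61, 0.60 and 0.52. After palmitate, 15 of the 20 did not pass, none fell and 5 rose, against 1.38% of all genes tested: Ppp1r15a, the inducible subunit that lets eIF2α be dephosphorylated, by 0.93, Chac1, Sesn2 and Atf3 by 0.65 each, and Asns by 0.35. This list, too, was chosen with earlier results of these data known, so the shares are a description only. Over all genes the calls after palmitate ran from 71 to 1901 with a library left out. Whether these 5 calls held in the alternatives is not reported here. Atf4 itself differed by 0.20 ± 0.064 after palmitate and did not pass (edgeR adjusted p = 0.115).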

How the data were processed

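RNA-seq libraries were made by the authors from total RNA with a stranded poly(A) kit and sequenced as single-end reads. Reads were cleaned, checked with FastQC 0.11.9, mapped to GRCm38/mm10 with HISAT2 2.1.0 and counted per gene with HTSeq, per the submitters' processing notes and the study's methods. The annotation and the strand setting of the counting are not given in the sources used here. The deposited values are raw counts per gene for 9 libraries.

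Here edgeR 4.0.16 (R 4.3.3) was run on those counts, with filterByExpr, TMM scaling and a quasi-likelihood fit of group over all 9 libraries, Benjamini-Hochberg adjustment over 12575 genes and a threshold of 0.05. The steps were tested on simulated data. The study used DESeq2, which was run as an alternative (1.42.0). Log2 fold changes come from the fit, and CPM from counts over the scaled library sizes. Gene positions and coding lengths were taken from GENCODE M21, in which 23376 genes matched by symbol and 677 by a synonym, and promoters from RefSeq.

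Values in every library were given for the 6 members with the smallest p in each class and comparison, members called after palmitate, Gars, Kars, Qars and Ears2, and called members opposing their class. Other members are given by counts and ranges. For 1 member that is counted in the classes and sums, the values are not reported here. Genes of other lists were named after their values were seen. The members, lists and motifs were chosen with earlier results of these data known. Alternatives were other scalings, filters, 2-group fits, DESeq2, removal of a GC and length trend, a replicate block, and each library left out in turn. Leaving out Lars2 was added after seeing the data. Within a group no 2 libraries agreed within counting noise, and none was merged.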

Additional observations from a re-analysis of the deposited data

How the results depend on the processing

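Between culture forms the number of members called stayed between 29 and 30 when each library was left out in turn, with 18 to 19 cytosolic or dual and 10 to 11 mitochondrial genes lower, 0 cytosolic genes higher, and class medians of -0.71 to -0.65 and -0.41 to -0.34. The number of mitochondrial genes called higher was 1, 0 to 2 with a library left out (0 without 3D with palmitate replicate 2, 2 without replicate 1), 2 with the GC and length trend removed and 0 without Lars2. The cytosolic median was -0.72 without a filter and -0.86 with the trend removed, and the mitochondrial median -0.48 with it removed. Qars changed sign, to -0.0018 with library size alone, -0.017 without a filter and -0.036 with the trend removed, and from -0.025 to 0.029 with a library left out. The difference in the log2 ratio of the class sums was -1.38 with Lars2 (-1.91 to -0.93 with a library left out), -0.27 as a mean of log2 CPM, -0.27 without Lars2, -0.30 without it per kb and -0.18 without it as a mean of log2 CPM.

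After palmitate the number of members called was 3, of which 3 were cytosolic and 0 mitochondrial. It was 1, Wars, with RLE scaling, with library size alone, with at least 10 counts in every library and with DESeq2 on 2 groups, and 0 with 2 groups only. DESeq2 on all libraries called 6 (5 cytosolic, 1 mitochondrial), removal of the trend 10 (9 and 1), and no filter 4, of which 2 were mitochondrial. Without a filter Lars2 had an edgeR adjusted p of 7.11e-22 although its libraries spanned 706 to 3805 CPM, and the cause was not tested. With a library left out the calls ran from 0 to 12, the cytosolic ones from 0 to 9 and the mitochondrial ones from 0 to 3, with no gene called lower. The 12 came without 3D with palmitate replicate 3, when 1901 genes were called in place of 275, and 0 members were called without any 1 of the 3 libraries lacking added palmitate, without 3D with palmitate replicate 2 or without 2D replicate 1. The remaining omissions gave 1 each. The class medians ran from 0.14 to 0.16 and from 0.07 to 0.16, and the cytosolic one was 0.12 with the trend removed. Qars changed sign with library size alone (-0.0012) and with the trend removed (-0.0070), and ran from -0.013 to 0.035 with a library left out, as Ears2 did from -0.073 to 0.024. The ratio difference was -0.55 with Lars2 (-1.08 to -0.10 with a library left out) and turned to 0.021 as a mean of log2 CPM, 0.077 without Lars2, 0.081 without it per kb and 0.065 without it as a mean of log2 CPM.

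With the replicate block 0 members were called after palmitate, and 111 genes in all. Same-numbered libraries did not deviate together (correlations from -0.24 to 0.15, median -0.05, against -0.17 to 0.28, median 0.03, for other numbers), so the numbers were not taken to pair the libraries. The cause of these changes was not tested. Depth limits the scarce mitochondrial genes most, with 47 to 76 counts for the lowest in the shallowest library.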
